A study of Homo sapiens with 2 samples.

Results

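HSPA8 encodes HSC70, the heat shock cognate protein that cells make without a heat shock. Its event rows were taken from the 5 event lists of both libraries by the Ensembl identifier ENSG00000109971. HSPA8 is 1 of the 8028 genes with a row in either library, and it held 254 of the 78090 rows. The gene lies on the minus strand of chromosome 11, at chr11:123057489-123063230 of hg38. It was chosen by its difference in rows between these libraries. Its number of rows was the highest of all genes in DCRT-KO (rank 1, and rank 15 in WT). The numbers of rows and their difference are thus a description and support nothing by themselves.

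HSC70 is an ATP-driven chaperone. It holds unfolded stretches of protein with the help of J-domain proteins, which stimulate its ATPase, and of nucleotide exchange factors such as the BAG proteins and HSPH1, which let the client go. It also strips clathrin from coated vesicles together with auxilin or GAK, and it delivers proteins with a targeting motif to LAMP2A on lysosomes in chaperone-mediated autophagy. The gene is a host of small nucleolar RNAs. Box C/D snoRNAs guide ribose methylation or processing of ribosomal RNA, and those in introns are trimmed from the intron after it has been spliced out. HSPA8 also has many processed pseudogenes, which are copies of its spliced mRNA inserted elsewhere in the genome.

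Both libraries came from AC16, an established human line that the labels call cardiomyocytes of heart. The DCRT-KO cells are labelled as a CRISPR-Cas9 knockout of the long non-coding RNA DCRT, and the WT cells as wild type. The lists give no expression, so the knockout label could not be checked here. There was 1 library of each genotype, no treatment is named, and the number of knockout clones is not given in the sources used here. The study asked how loss of DCRT changes alternative splicing in these cells.

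The lists name events and the isoforms that carry each of their 2 forms, without reads or levels. Sequencing depth is therefore unknown, and no test between the genotypes is possible. The DCRT-KO list had 42783 rows in 6729 genes and the WT list 35307 rows in 6407 genes. Of 16 cardiomyocyte marker genes, 2 had a row, NPPB and MYL3, and both were listed in WT only. Of 12 fibroblast markers 10 had rows, 2 with more in DCRT-KO (VIM and PDGFRA) and 8 with more in WT. They summed to 22 rows in DCRT-KO and 583 in WT, of which COL1A1 alone gave 405. Of 6 epithelial markers 3 had rows, all with more in DCRT-KO, with 79 and 22 rows in all. The libraries thus differed in their lists of marker genes, and the part of this difference in the HSPA8 values was not tested. A gene without rows may still be expressed.

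The gene model used here, ENST00000534624, has 9 exons and 8 introns. Introns 5, 6 and 8 hold SNORD14C, SNORD14D and SNORD14E. Introns 5 and 6 are shown whole because they are the snoRNA-hosting introns with most retaining isoforms in DCRT-KO. They are written 5′ to 3′ on the transcribed strand with the snoRNA in capitals. SNORD14E is shown by itself, with its C box motif TGATGA and D box motif CTGA in capitals. The sequences come from GENCODE v29 transcripts on the same assembly.
Intron 5 with SNORD14C, chr11:123059262-123059472: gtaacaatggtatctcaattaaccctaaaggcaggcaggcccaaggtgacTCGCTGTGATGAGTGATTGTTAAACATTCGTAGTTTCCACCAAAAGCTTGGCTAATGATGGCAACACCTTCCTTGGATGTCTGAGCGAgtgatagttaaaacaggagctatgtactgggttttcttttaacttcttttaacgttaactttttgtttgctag
Intron 6 with SNORD14D, chr11:123058831-123059058: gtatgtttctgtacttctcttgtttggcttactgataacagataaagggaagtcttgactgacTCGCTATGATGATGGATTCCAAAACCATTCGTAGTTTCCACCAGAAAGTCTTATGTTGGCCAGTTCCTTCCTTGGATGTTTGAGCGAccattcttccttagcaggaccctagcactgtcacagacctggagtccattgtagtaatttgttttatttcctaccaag
SNORD14E of intron 8, chr11:123058077-123058161: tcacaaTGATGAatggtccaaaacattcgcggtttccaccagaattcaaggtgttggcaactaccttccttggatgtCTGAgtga
The letters TGATGA were found in all 3 snoRNAs on their own strand, and CTGA was found in SNORD14C and SNORD14E. Among 955 annotated snoRNA transcripts, 36.02% held TGATGA and 71.2% held CTGA. The other strand was not searched, and the D box letters of SNORD14D were not in the window in this exact form.

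HSPA8 had 197 rows in DCRT-KO and 57 in WT. Intron retention made up 145 rows in DCRT-KO and 42 in WT. These are 73.6% (exact 95% interval 66.9 to 79.6) and 73.7% (60.3 to 84.5) of its rows, so the share of intron retention was alike while the number was not. Over the whole lists, intron retention gave 12224 of 42783 rows in DCRT-KO and 12401 of 35307 in WT. All intervals cover counting error only, and they treat rows as independent although rows of 1 gene share isoforms. Alternative acceptors gave 19 rows in DCRT-KO and 7 in WT, alternative donors 18 and 6, and skipped exons 14 and 2. The 1 row of mutually exclusive exons, of exons 3 and 4, was in DCRT-KO. Every type with a row in WT had more rows in DCRT-KO.

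**Figure D1:**
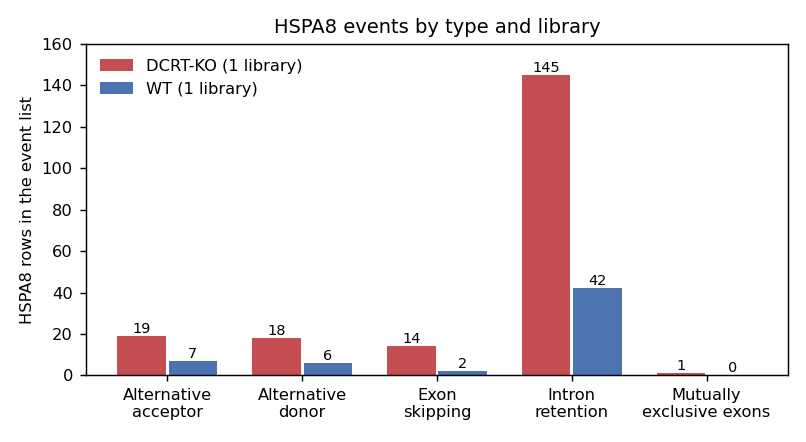
Rows of HSPA8 in the event lists (vertical axis) by event type (horizontal axis), with 1 bar for each library and no error bars because there is 1 library per genotype. Intron retention is the tallest pair, with 145 rows in DCRT-KO and 42 in WT.

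The ratio of DCRT-KO to WT rows was 3.46 (exact interval 2.56 to 4.73), and for intron retention alone it was 3.45. The lists themselves differed in length by a ratio of 1.21 for all types and of 0.986 for intron retention. Among the 2525 genes with at least 10 rows, 31.1% had at least 2 times as many rows in DCRT-KO as in WT and 15.1% the reverse. A ratio at least as high as that of HSPA8 was found in 14.7% of these genes for all types. For intron retention, 22.6% of 634 genes had at least 2 times as many rows in DCRT-KO, 23.2% the reverse, and 9.31% a ratio at least as high as that of HSPA8. The ratio was therefore not rare among genes with at least 10 rows, and it was part of how the gene was chosen. Most of these genes had far fewer rows than HSPA8. Of the 27 genes with at least 100 rows, 10 had at least 2 times as many in DCRT-KO and 4 in WT. For intron retention it was 2 and 3 of 10 genes. How many of these larger genes reached the ratio of HSPA8 was not counted. By difference in rows, for which it was chosen, HSPA8 had 140 more in DCRT-KO, and no other gene had a larger excess in that direction. In the opposite direction COL1A1, a collagen gene, had 1 row in DCRT-KO and 405 in WT.

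Isoforms gave a smaller contrast than rows. The HSPA8 rows named 179 isoforms of the DCRT-KO library and 82 of the WT library, a ratio of 2.18. Over all genes the lists named 54197 and 49374 isoforms, a ratio of 1.10. Each HSPA8 isoform came with 1.10 rows in DCRT-KO and 0.695 in WT, against 0.789 and 0.715 over the lists. By isoforms, HSPA8 ranked 3 among genes in DCRT-KO and 22 in WT. How many isoforms a gene yields depends on its expression and on depth, neither of which is known here, and their part in the difference was not tested.

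Most rows rested on a single isoform. The rarer form was carried by 1 library isoform in 183 of 197 DCRT-KO rows (92.9%, interval 88.4 to 96.1) and in 52 of 57 WT rows (91.2%, 80.7 to 97.1). Each form had at least 2 library isoforms in 14 rows of DCRT-KO and 4 of WT. Both forms rested on 1 isoform each in 53 and 16 rows. These shares were not counted over all genes, so they cannot be called particular to HSPA8.

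The isoforms were linked differently in the libraries. In DCRT-KO all 179 isoforms were connected through shared rows. In WT they fell into 2 groups that shared no row, of 29 isoforms with 24 rows and of 53 isoforms with 33 rows. All 11 WT rows on annotated introns and all 6 on segments from one exon into another were in the first group. Of the 25 rows on segments inside an exon, 4 were in the first and 21 in the second. No WT row thus set an isoform that retains an annotated intron against the isoforms of the second group.

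Retention of the 8 introns was uneven. Intron 5, which hosts SNORD14C, was retained by 14 isoforms in DCRT-KO and 3 in WT. Intron 4, which hosts no snoRNA, was retained by 11 and 4. Intron 7 was retained by 7 and 3, intron 6 with SNORD14D by 5 and 2, and intron 3 by 4 and 3. These 5 introns had the highest counts in DCRT-KO. Introns 1 and 8 were retained by 2 isoforms each in DCRT-KO, and in WT by 0 and 1, and intron 2 by 1 isoform in each library. The spliced forms named in the same rows were carried by 72 isoforms for intron 5 in DCRT-KO and by 2 in WT. These are the isoforms of a row and not all isoforms of the library. In WT, an alternative donor row at the end of exon 5 named 32 isoforms on the annotated site, so retaining and spliced isoforms give no retention level.

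**Figure D2:**
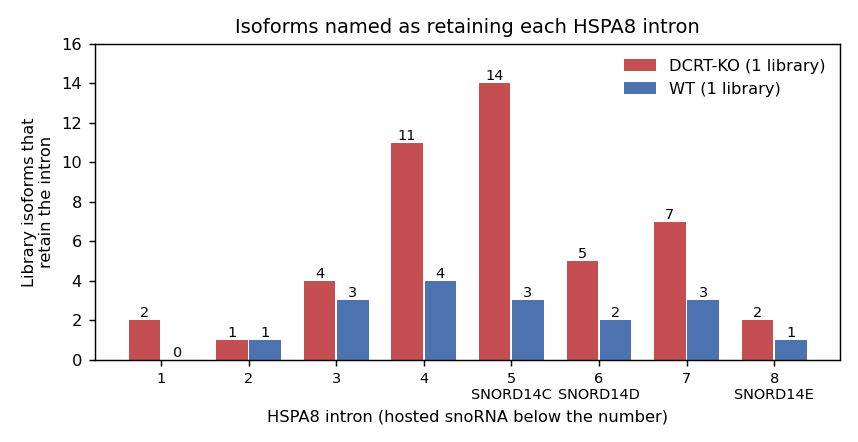
Library isoforms named as retaining each HSPA8 intron (vertical axis) for introns 1 to 8 (horizontal axis), in 1 library per genotype and with no error bars. Intron 5, the host of SNORD14C, has the highest bar in DCRT-KO (14 isoforms), and intron 4, without a snoRNA, has the next (11).

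Retention was also counted by isoform. At least 1 of the 8 introns was retained by 28 of 179 isoforms in DCRT-KO (15.6%, interval 10.7 to 21.8) and by 11 of 82 in WT (13.4%, 6.89 to 22.7). All 11 of the WT isoforms were among the 29 of the first group (37.9%, 20.7 to 57.7), and 0 were among the 53 of the second (0 to 6.72%). The WT share thus depends on whether the unlinked groups are pooled. A snoRNA-hosting intron was retained by 18 isoforms in DCRT-KO (10.1%, 6.07 to 15.4) and by 5 in WT (6.10%, 2.01 to 13.7). An intron without a snoRNA was retained by 20 (11.2%, 6.96 to 16.7) and 9 (10.98%, 5.14 to 19.8). Isoforms of 1 library are not replicates, so these shares describe the libraries and give no comparison of the genotypes. Several introns were often retained together, since 14 of the 28 DCRT-KO isoforms and 5 of the 11 WT isoforms kept at least 2, and no isoform kept more than 3.

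Most intron retention rows did not concern an annotated intron. The DCRT-KO rows held 123 distinct segments and the WT rows 38. Of these, 10 and 7 were introns of an annotated HSPA8 transcript. Segments that lie wholly inside an exon numbered 54 in DCRT-KO and 25 in WT. Segments that start in one exon and end in another, and thus take out the introns between them along with exon sequence, numbered 43 and 6. A further 16 in DCRT-KO, and 0 in WT, used annotated sites in a new pair (3), 1 annotated site (9) or an end in an intron (4).

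**Figure D3:**
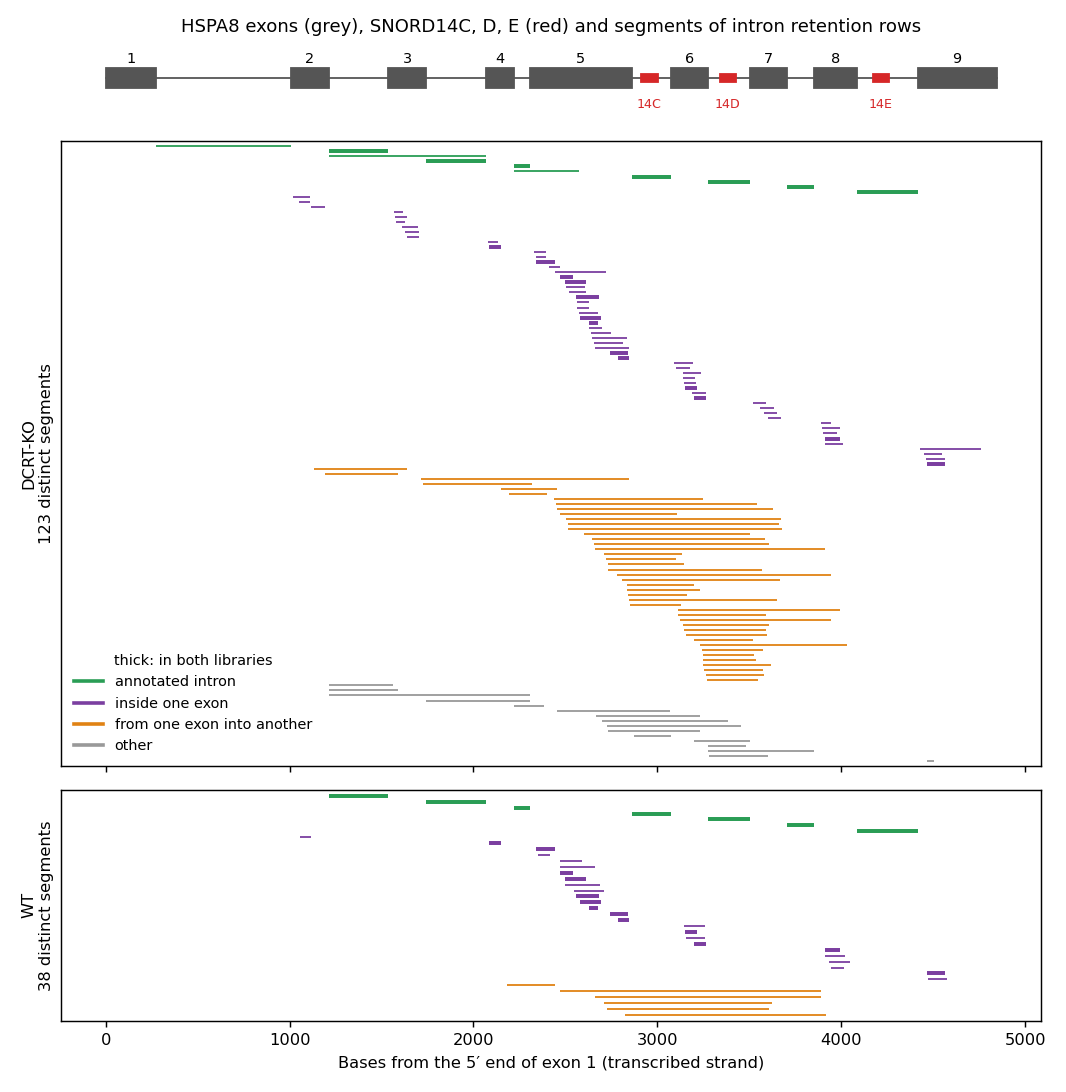
Distinct segments of HSPA8 intron retention rows, drawn as horizontal lines by distance in bases from the 5′ end of exon 1 (horizontal axis), for DCRT-KO (123 segments) and WT (38), with exons and snoRNAs above. Colours give the kind of segment and thick lines those in both libraries; segments inside an exon crowd in exon 5, and the segments from one exon into another mostly start in exons 5 and 6.

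Exon 5, the longest internal exon with 556 bases, held most segments inside an exon, 22 in DCRT-KO and 13 in WT, of which 8 were in both. Per 100 bases this is 3.96 and 2.34. Exon 6 had 8 and 4 segments (3.94 and 1.97 per 100 bases), and exon 8 had 5 and 4. Exons 3 and 7 had 6 and 4 in DCRT-KO and 0 in WT, and exon 1, which is noncoding, had none in either library. For segments between exons, exon 6 to exon 7 had 12 in DCRT-KO and 0 in WT, exon 5 to exon 7 had 11 and 2, and exon 5 to exon 6 had 9 and 0. Exon 5 to exon 8 was the pair with more in WT, at 3 against 2.

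The unannotated segments inside an exon or between exons rarely had GT and AG ends, the ends of most spliceosomal introns. By definition these kinds leave out segments that use an annotated site or end in an intron, and several of those had GT and AG ends. Of the 97 segments inside an exon or between exons in DCRT-KO, 4 (4.12%, interval 1.13 to 10.2) started with GT and ended with AG. In WT it was 2 of 31 (6.45%, 0.791 to 21.4). When GC was also allowed in place of GT, the counts were 9 of 97 in DCRT-KO (9.28%, 4.33 to 16.9) and 4 of 31 in WT (12.9%, 3.63 to 29.8). Most of the segments inside an exon or between exons, though not all, had a direct repeat at their ends. This means that a run of bases at the start of the segment occurs again at its end. Such a segment can be placed at several positions with the same result. A repeat of at least 4 bases was found in 63 of 97 (64.9%, 54.6 to 74.4) and in 19 of 31 (61.3%, 42.2 to 78.2). The median repeat was 5 bases in DCRT-KO and 4 in WT, and the longest was 12. For segments inside an exon in either library, 56.1% of 66 had such a repeat and 7.58% had GT and AG ends. Over all placements of segments of the same lengths in the same exons, 4.38% had such a repeat and 0.544% had GT and AG ends.

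**Figure D4:**
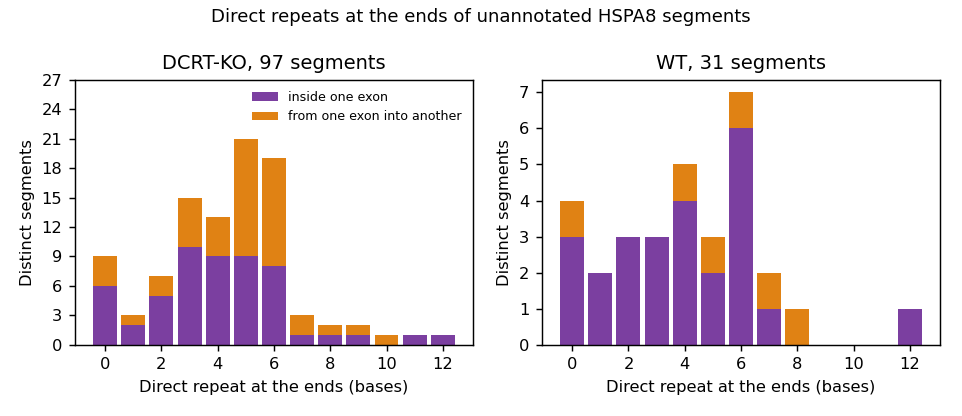
Length in bases of the direct repeat at the ends (horizontal axis) of the distinct unannotated HSPA8 segments (vertical axis), in DCRT-KO (97 segments) and WT (31), with segments inside an exon and between exons stacked. The medians are 5 and 4 bases, and the single segment with a repeat of 12 bases appears in both panels.

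Segments inside an exon that were listed in both libraries at the same positions numbered 13, and 8 of them had a repeat of at least 4 bases. These 8 are shown because they are the unannotated HSPA8 segments that recur and carry the repeat. Each is written on the transcribed strand with 12 bases on either side, and both copies of the repeat are in capitals. The coordinates are those of the segment without the flanks.
Segment in exon 4, chr11:123060184-123060250: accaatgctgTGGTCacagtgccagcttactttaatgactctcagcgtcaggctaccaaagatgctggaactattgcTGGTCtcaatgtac
Segment in exon 5, chr11:123059891-123059995: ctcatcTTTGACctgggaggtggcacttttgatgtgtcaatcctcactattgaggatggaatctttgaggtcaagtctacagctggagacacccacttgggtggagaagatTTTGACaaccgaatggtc
Segment in exon 5, chr11:123059725-123059839: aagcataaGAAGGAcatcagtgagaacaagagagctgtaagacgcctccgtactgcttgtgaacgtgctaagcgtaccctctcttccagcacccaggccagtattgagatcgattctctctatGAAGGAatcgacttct
Segment in exon 5, chr11:123059650-123059776: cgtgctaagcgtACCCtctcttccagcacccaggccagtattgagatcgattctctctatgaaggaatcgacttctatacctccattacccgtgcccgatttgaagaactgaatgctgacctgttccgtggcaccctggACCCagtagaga
Segment in exon 5, chr11:123059644-123059755: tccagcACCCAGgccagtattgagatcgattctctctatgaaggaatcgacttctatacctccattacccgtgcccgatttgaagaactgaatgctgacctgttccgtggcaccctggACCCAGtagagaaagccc
Segment in exon 5, chr11:123059494-123059595: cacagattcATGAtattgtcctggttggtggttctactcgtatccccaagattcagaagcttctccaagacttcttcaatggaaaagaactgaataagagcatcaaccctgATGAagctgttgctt
Segment in exon 5, chr11:123059491-123059548: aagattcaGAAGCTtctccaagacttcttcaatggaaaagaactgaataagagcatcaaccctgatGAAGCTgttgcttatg
Segment in exon 8, chr11:123058344-123058421: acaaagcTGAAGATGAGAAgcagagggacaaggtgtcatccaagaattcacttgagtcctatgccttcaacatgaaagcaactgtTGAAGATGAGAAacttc
The segment of exon 8 has the longest repeat, TGAAGATGAGAA. It is 78 bases long, a multiple of 3. In DCRT-KO 1 isoform lacked it and 137 carried it, and in WT 1 isoform lacked it and 43 carried it. The segment at chr11:123059644-123059755 was missing from 2 isoforms in each library, against 91 isoforms that carried it in DCRT-KO and 32 in WT. As listed, that segment starts with GC and ends with AG. In exon 4, 2 isoforms of DCRT-KO and 1 of WT lacked the segment shown. Recurrence thus rested on 1 or 2 isoforms in each library.

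Segments that remove a multiple of 3 coding bases leave the reading frame intact. HSPA8 segments inside an exon or between exons were counted where coding sequence lay on both sides. Of these, 55 of 96 in DCRT-KO (57.3%, interval 46.8 to 67.3) and 18 of 31 in WT (58.1%, 39.1 to 75.5) removed a multiple of 3. The same was seen in other genes when segments inside coding exons were counted in the same way for every gene. There, 51.9% of 54 HSPA8 segments and 50.1% of 2467 segments of 1160 other genes had such a length in DCRT-KO. In WT it was 60% of 25 and 50.6% of 2757 in 1267 other genes. A repeat of at least 4 bases was found in 55.6% of HSPA8 segments and 59.95% of the others in DCRT-KO, and in 56.0% and 59.5% in WT. GT and AG ends were found in 7.41% and 10.4% in DCRT-KO, and in 8% and 10.4% in WT. In all 3 features the values of other genes lie inside the HSPA8 intervals.

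HSPA8 ranked 2 in DCRT-KO and 8 in WT by the number of such segments. Its segments were listed in the other library too in 24.1% of cases from DCRT-KO (interval 13.5 to 37.6) and 52.0% from WT (31.3 to 72.2), against 6.40% and 5.73% for other genes. Since genes differ in how many such segments they have, the 11 other genes with at least 10 in each library were set beside it, a choice made after seeing the data. Among them 4.17% to 30.8% of DCRT-KO segments recurred, and 4 of the 11 lay above HSPA8. Of their WT segments 6.06% to 25.0% recurred, and none lay above HSPA8. The same shared segments make a larger share of a shorter list, and HSPA8 was chosen for its excess in DCRT-KO. It had 54 and 25 segments with 13 in both, whereas TUBA1B had 70 and 93 with 17 in both. EEF2 (24 and 10) and NCL (25 and 14) also had more in DCRT-KO, with WT shares of 10% and 21.4%. The part of this imbalance in the WT share of HSPA8 was not tested. The 4 above HSPA8 in DCRT-KO were the actin genes ACTB (30.8%) and ACTG1 (28.9%), HSPA5 (25%) and the alpha-tubulin gene TUBA1B (24.3%). HSPA5 also had the highest WT share of the 11, at 25%. The beta-tubulin gene TUBB had 17.4% and the lowest WT share, 6.06%.

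Over all event types, 26 distinct HSPA8 events were in both libraries. They are 15.03% of the DCRT-KO events (interval 10.1 to 21.2) and 49.1% of the WT events (35.1 to 63.2). For all event types of all other genes together the shares were 28.1% and 33.4%. Within intron retention, 20 HSPA8 events were shared, which are 16.3% of those in DCRT-KO (10.2 to 24.0) and 52.6% of those in WT (35.8 to 69.0). For intron retention of all other genes the shares were 21.2% and 20.5%. The DCRT-KO share of other genes lies inside the HSPA8 interval and the WT share below it. HSPA8 had 123 and 38 distinct intron retention events, and the other genes together had 11396 and 11782. The same shared events make a larger share of a shorter list, so the WT shares are not compared like for like. The part of this imbalance was not tested. The 20 were 7 annotated introns and 13 segments inside an exon, and none was a segment between exons. All 7 distinct annotated introns of the WT rows were also in DCRT-KO.

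Exon skipping in both libraries concerned exon 3, of 206 bases, which is not a multiple of 3. It was skipped by 3 isoforms and included by 141 in DCRT-KO, and skipped by 1 and included by 45 in WT. Exon 4, of 153 bases, was skipped in DCRT-KO only, by 2 isoforms against 135, and exon 7, of 199 bases, by 2 against 104. With 1 to 3 isoforms on the skipping form, their absence from the WT list cannot be told apart from fewer isoforms in that library. An unannotated exon of 153 bases in intron 1, at chr11:123061588-123061740, was carried by 1 DCRT-KO isoform against 153 without it.

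Most shared changes of splice sites were also carried by single isoforms. An acceptor 53 bases inside exon 3 was used by 1 isoform in each library, against 142 in DCRT-KO and 45 in WT on the annotated site. A donor 9 bases inside intron 5 was used by 1 isoform in each, against 91 and 32. ENST00000453788, the annotated transcript of a shorter HSC70 form, ends exon 7 at a donor inside that exon. In a shared donor row, this site was carried by 2 library isoforms in DCRT-KO and in WT by the annotated transcript alone. Annotated transcripts named in the rows numbered 6 in DCRT-KO and 2 in WT.

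The 17 HSPA8 pseudogenes with an identifier had 0 rows in both libraries. No row of another identifier touched the HSPA8 span, and no HSPA8 row had a position outside it or on another chromosome. These lists do not show where reads from pseudogenes or reads of HSPA8 placed on them would appear, and their part was not tested.

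Other HSP70 genes had far fewer rows. Of 15 family members 8 had rows, with 6 higher in DCRT-KO, 1 higher in WT and 1 equal, and a median difference of 1 row. HSPA5, the chaperone BiP of the endoplasmic reticulum, had 33 rows in DCRT-KO and 27 in WT. HSPA9, the mitochondrial member mortalin, had 12 and 11, HYOU1 of the endoplasmic reticulum 10 and 7, and HSPA4, a nucleotide exchange factor of the HSP110 branch, 10 and 4. Over all genes, 52.4% had more rows in DCRT-KO and 37.4% in WT, also with a median difference of 1.

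Of 24 HSC70 partners 21 had rows, 13 with more in DCRT-KO, 4 with more in WT and 4 equal, again with a median difference of 1. HSP90AB1, the constitutive cytosolic HSP90 that takes clients from HSC70, had 110 rows in DCRT-KO and 71 in WT. BAG6, which holds tail-anchored and mislocalised proteins, had 88 and 52. GAK, the J-domain partner in clathrin uncoating outside neurons, had 23 and 21, and STIP1, which bridges HSC70 and HSP90, had 18 and 15. HSPA8 had more rows in DCRT-KO than any of these genes.

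**Figure D5:**
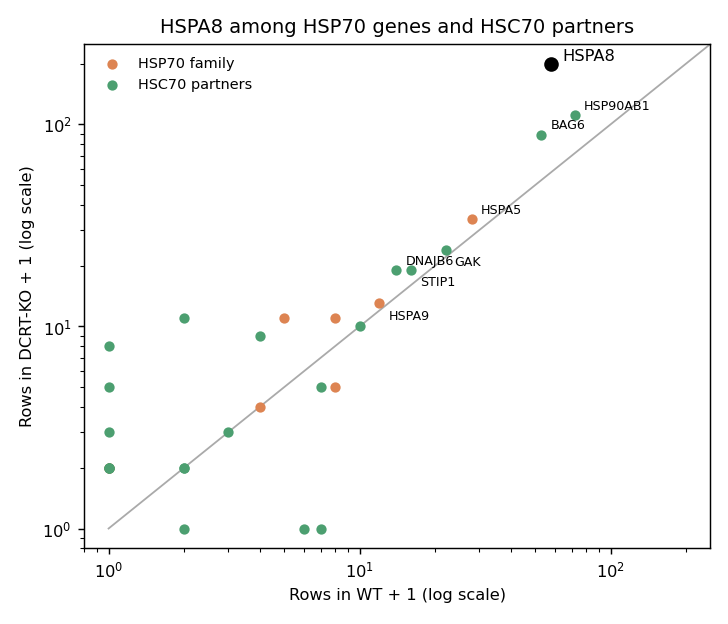
Rows in WT plus 1 (horizontal axis, log scale) and in DCRT-KO plus 1 (vertical axis, log scale) for HSPA8, members of the HSP70 family and HSC70 partners with any row, with a line of equal values. HSPA8 lies above the line at 197 rows in DCRT-KO and 57 in WT, and HSP90AB1 is nearest to it at 110 and 71.

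The 5 genes most like HSPA8 were found among 138 genes with at least 50 rows by the Euclidean distance of log2(rows + 1) over the 10 combinations of event type and library. They were HSP90AB1 (distance 1.86), EIF4A2 (1.99), PABPC1 (2.38), RPL3 (2.87) and ENO1 (3.00), and the median distance over the candidates was 5.78. EIF4A2, a translation initiation helicase, had 120 rows in DCRT-KO and 43 in WT. PABPC1, which binds poly(A) tails, had 125 and 76. RPL3, a ribosomal protein, had 79 and 34, and ENO1, a glycolytic enolase, had 80 and 35.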

How the data were processed

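The deposited files list alternative splicing events of 2 AC16 libraries, 1 per genotype, grouped by the genotype labels. Per the file headers, a row gives chromosome, isoforms of each form, gene identifier, structure and splice positions, and the authors deposited no counts, levels or scores. PacBio Iso-Seq is named in the series' design text, but stranded Illumina paired-end libraries in the labels' protocols, and this conflict was not settled. Reads were handled with minimap2 and hg38, per the submitters' processing notes; the event caller and its filters, not given in the sources used here, are unknown.

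Each row was counted as 1 event. Rows without an Ensembl identifier (348 in DCRT-KO, 259 in WT) stayed in list totals and out of counts over genes. Positions were compared with GENCODE v29 (GRCh38), and end bases and repeats were read from its transcript sequences. Shares have exact Clopper-Pearson 95% intervals. Python 3.11.15 and SciPy 1.17.1 were used, and the repeat search was tested on simulated data. HSPA8, the lists and the rules were chosen with earlier results of these data known. The rule named the 5 genes nearest to HSPA8 and the 4 members of each chaperone list with most rows; other genes were named after their values were seen. No p-value was computed.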

Additional observations from a re-analysis of the deposited data

How the results depend on the processing

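The ratio of DCRT-KO to WT rows lay between 3.19 and 3.52 under every alternative way of counting rows. Rows in which both forms had 2 or more library isoforms numbered 14 in DCRT-KO and 4 in WT, and all 4 WT rows (100%) were intron retention. With intron retention limited to annotated introns, 83 and 26 rows were left, and its share fell to 37.3% and 42.3%. HSPA8 held 0.460% of all DCRT-KO rows and 0.161% of WT rows, a ratio of shares of 2.85. Of intron retention rows alone it held 1.19% and 0.339%. With isoforms in place of rows the DCRT-KO share was 0.330% and the ratio of shares 1.99. When any overlap counted as shared, 82.1% of DCRT-KO and 92.5% of WT events were shared. These shifts follow from how each alternative counts. No paired analysis was possible because there was 1 library per genotype and no test. Depth is unknown, so an event missing from a list may have been missed.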
